A study of Mus musculus with 26 samples.

Results

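Expression of 10 genes of bone morphogenetic protein (BMP) signalling was followed through the reprogramming of mouse fibroblasts. They were chosen by name: the inhibitor of differentiation genes Id1, Id2, Id3 and Id4, the ligand gene Bmp4, the antagonist genes Nog and Grem1, and the target genes Atoh8, Smad6 and Smad7. All were taken by symbol from a table of 18198 genes in 26 libraries, and all 10 were found in it.

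The libraries fell into 13 groups of 2. Mouse embryonic fibroblasts (MEF, passage 2, grown with fetal bovine serum) were the starting cells, and embryonic stem cells (ESC, passages 20 to 24, strain CBA/CaJ X C57BL/6J) and induced pluripotent stem cells (iPSC, passages 5 to 8) were grown in N2B27 with 2i and LIF. The OSK course, named for Oct4, Sox2 and Klf4, was sampled at days 0, 1, 3, 5 and 7, and the OSK-cJun course, to which cJun was added, at days 0, 1, 3 and 7. OSK-shSap30 cells, which also carried a hairpin against Sap30, were sampled at day 7. The labels name retrovirus made in PlatE cells for the factors and lentivirus for hairpins, and 2 media, iCD1 and a serum medium with LIF, without saying which library had which. The groups held neither a control hairpin nor an empty vector. Strain was labelled for ESC alone, and nothing said that replicates were separate cultures, so p-values measure the spread between these libraries, which may be technical.

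BMP ligands bind serine and threonine kinase receptors that phosphorylate Smad1, Smad5 and Smad9, which enter the nucleus with Smad4 and raise transcription of the Id genes, Smad6, Smad7 and Atoh8. Id proteins bind E proteins and keep them off DNA, while Smad6 and Smad7 block the receptors and so close a negative feedback loop, and Nog (noggin) and Grem1 (gremlin) bind the ligands outside the cell. In mouse ESC, BMP with LIF supports self-renewal through Id genes, and in fibroblasts BMP signalling is known to favour the mesenchymal to epithelial transition that opens reprogramming.

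The values were a normalised score, equal in distribution between libraries, and the sources used here do not say whether gene length was taken into account, so levels are compared within a gene and not between genes. The replicates of a group correlated across genes at 0.936 (MEF) to 0.966 (iPSC), and the 2 OSK day 5 libraries differed in their summed fibroblast markers, at 12293 and 30791. Mean Jun values were 404 at OSK day 1 and 6526 at OSK-cJun day 1, and mean Sap30 values at day 7 were 339.5 in OSK and 30.5 in OSK-shSap30, as the labels say. At day 0 mean Jun was already 4819.5 in OSK-cJun against 747.5 in OSK. Folds from OSK-cJun day 0 therefore start from cells in which Jun was already high. The 8 fibroblast markers summed to between 79618 and 83314 in MEF, and the 8 pluripotency markers to between 22174 and 23975 in iPSC and ESC against 9 to 32 in MEF. In bulk samples such as these, fewer cells of a type and less RNA per cell cannot be told apart.

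In the GRCm38 build, Id1 lies on chromosome 2 at 152736251-152737410, Id2 on chromosome 12 at 25093799-25097140, Id3 on chromosome 4 at 136143497-136145755 and Id4 on chromosome 13 at 48261228-48266026. Bmp4 lies on chromosome 14 at 46383520-46390669, Nog on chromosome 11 at 89300638-89302332 and Grem1 on chromosome 2 at 113746164-113758646. Atoh8 lies on chromosome 6 at 72206177-72235577 and Smad6 on chromosome 9 at 63953076-64022059. These 9 genes, and Smad7, are annotated as protein coding.

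RefSeq promoter windows of the GRCm38.p6 build matched 7 of the 10 (Id2, Id3, Id4, Bmp4, Grem1, Atoh8 and Smad6), with Id1, Nog and Smad7 not matched. The 250 bases before the start are shown for Smad6 and Atoh8, which dropped together within a day, and for Grem1, which did not.
Smad6, chr9:64022060-64022309, minus strand: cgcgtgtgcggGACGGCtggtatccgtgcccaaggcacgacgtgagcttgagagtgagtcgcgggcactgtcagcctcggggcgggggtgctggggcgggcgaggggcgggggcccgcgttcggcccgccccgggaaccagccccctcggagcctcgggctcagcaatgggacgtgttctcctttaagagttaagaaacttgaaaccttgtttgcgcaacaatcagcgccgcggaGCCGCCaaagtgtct
Atoh8, chr6:72235578-72235827, minus strand: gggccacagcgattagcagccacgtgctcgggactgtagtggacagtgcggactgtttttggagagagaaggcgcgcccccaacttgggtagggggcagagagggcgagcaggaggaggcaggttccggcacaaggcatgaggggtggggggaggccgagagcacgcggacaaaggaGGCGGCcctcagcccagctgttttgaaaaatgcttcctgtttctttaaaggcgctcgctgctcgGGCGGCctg
Grem1, chr2:113758649-113758898, minus strand: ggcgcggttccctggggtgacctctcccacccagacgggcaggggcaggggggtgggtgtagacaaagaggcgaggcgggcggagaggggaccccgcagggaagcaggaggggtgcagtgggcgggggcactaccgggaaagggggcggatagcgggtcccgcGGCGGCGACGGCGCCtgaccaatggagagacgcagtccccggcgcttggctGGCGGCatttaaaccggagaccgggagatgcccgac
Capitals mark GGCGCC and GCCGNC on either strand, which are GC-rich letters of the kind Smad1 and Smad5 are known to bind, and a match of each overlaps the other in Grem1. Smad6 and Atoh8 held 2 GCCGNC each and 0 GGCGCC, and Grem1 held 3 and 1. The Id3 window lay wholly in an annotated exon and the Id2 window overlapped one by 161 bases. Of the 5 windows clear of exons, 4 held GCCGNC, 2 held GGCGCC and 3 held GTCT, the letters of a general Smad element. Of all 7 matched windows, 5 held GCCGNC, 3 held GGCGCC and 5 held GTCT. Over 32851 mouse promoter windows of the same length, with those that overlap exons not left out, the shares were 27.4%, 9.59% and 82.9%. A match in these letters is a description of the sequence, and binding was not measured in these libraries.

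Between day 0 and day 1, values of Id1, Id3, Nog, Atoh8 and Smad6 dropped in both courses. By day 7, Id2 and Id3 had risen again from day 1 in both courses, whereas Smad6, Atoh8 and Nog were still low. Bmp4 and Smad7 were lower at day 7 than at day 0 in both courses. Grem1 took another path and was lower at OSK day 7 than at day 0, but was higher at day 7 with cJun or with the Sap30 hairpin than with OSK alone. Calls rest on limma over 16038 tested genes and need an adjusted p (Benjamini-Hochberg) under 0.05 together with a log2 fold of at least 1. A log2 fold here is a difference of group means of log2(value + 1), with n = 2 libraries a group, and it understates the change of genes with values near 0.

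**Figure D1:**
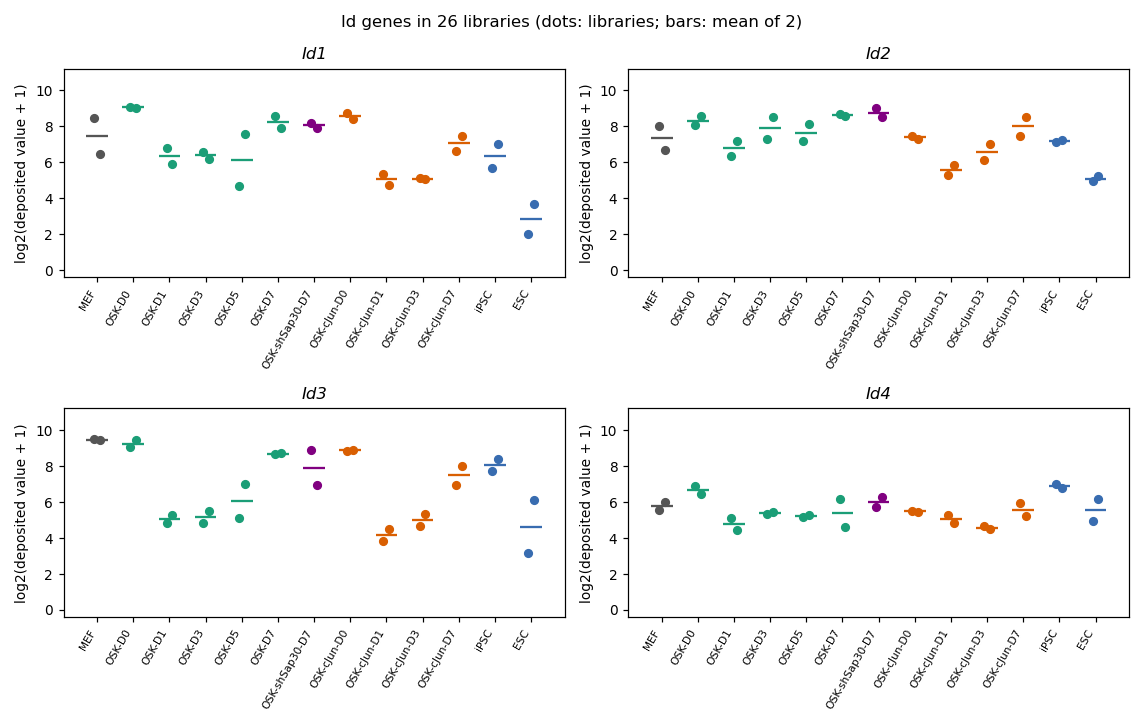
Deposited values of Id1, Id2, Id3 and Id4 on a log2(value + 1) axis in the 13 groups along the horizontal axis, with a dot for each of 2 libraries and a bar for their mean. Id1 and Id3 are low at days 1 and 3 of both courses and high again at day 7, while Id4 spans a narrower range.

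Id1, which encodes a helix-loop-helix protein without a DNA-binding region, stood at 350 and 87 in MEF and at 538 and 521 at OSK day 0. Later OSK values were 111 and 58 (day 1), 93 and 72 (day 3), 25 and 185 (day 5), and 383 and 235 (day 7). With cJun the values were 417 and 339 (day 0), 39 and 26 (day 1), 34 and 32 (day 3), and 98 and 175 (day 7). Days 1 and 3 lay below day 0 in every library of both courses, and the day 7 libraries lay above those of days 1 and 3 and below day 0. OSK-shSap30 gave 287 and 242, within the range of OSK day 7. The log2 fold from OSK day 0 to day 1 was -2.71 (SE 0.78, adjusted p = 0.0416), and from OSK-cJun day 0 to day 1 it was -3.52 (SE 0.78, adjusted p = 0.00759). The OSK call was lost without either day 0 library (adjusted p = 0.162 and 0.145) or either day 1 library (0.0753 and 0.275). The OSK-cJun call was lost without day 0 replicate 1 (0.0597) or day 1 replicate 2 (0.0778). From day 1 to day 7 the log2 fold was 1.89 in OSK (adjusted p = 0.0878) and 2.01 in OSK-cJun (adjusted p = 0.124), short of the threshold, which both passed when the OSK day 5 libraries were left out of the fit (0.0311 and 0.0445).

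Id3, which like Id1 holds E proteins off DNA, had its highest mean in MEF, at 728 and 688, and stood at 526 and 690 at OSK day 0. Its later OSK values were 28 and 38 (day 1), 27 and 45 (day 3), 34 and 128 (day 5), and 401 and 423 (day 7). With cJun they were 449 and 483 (day 0), 13 and 22 (day 1), 24 and 39 (day 3), and 124 and 255 (day 7). The day 1 mean was 5.43% of the day 0 mean in OSK and 3.76% in OSK-cJun, and the day 7 means were 67.8% and 40.7%. The log2 fold from day 0 to day 1 was -4.17 in OSK (SE 0.78, adjusted p = 0.00302) and -4.70 in OSK-cJun (SE 0.78, adjusted p = 0.00093). The rise that followed, from day 1 to day 7, was 3.62 in OSK (adjusted p = 0.00269) and 3.32 in OSK-cJun (adjusted p = 0.0106). The last of these was lost without OSK-cJun day 1 replicate 1 (0.107) or day 7 replicate 2 (0.114). Both changes rest on the same day 1 libraries, so a low value there enters each of them. Libraries of day 0 and day 7 did not overlap in either course, and the folds between those days were -0.55 (adjusted p = 0.65) and -1.38 (adjusted p = 0.236). OSK-shSap30 gave 466 and 121, of which 1 lay above and 1 below both OSK day 7 libraries.

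Id2 also encodes an E protein partner and is widely studied in cell fate decisions. It stood at 261 and 102 in MEF, and along the OSK course at 265 and 371, 81 and 144, 155 and 367, 142 and 275, and 402 and 376 at days 0, 1, 3, 5 and 7. With cJun it stood at 175 and 155, 38 and 57, 69 and 130, and 174 and 364 at days 0, 1, 3 and 7, and with the Sap30 hairpin at 505 and 367. Both courses had their lowest mean at day 1, and both OSK day 7 libraries lay above the 2 of day 0. The fold to day 1 was called in OSK-cJun (log2 fold -1.80, SE 0.49, adjusted p = 0.0252) but not in OSK (-1.53, SE 0.49, adjusted p = 0.0667), and these folds were not shown to differ. The OSK-cJun call was lost without either day 0 library (0.131 and 0.102) or either day 1 library (0.168 and 0.0665). From day 1 to day 7 Id2 rose by 1.84 in OSK (adjusted p = 0.011) and by 2.41 in OSK-cJun (adjusted p = 0.00399). The OSK rise was lost without day 1 replicate 1 (0.12) or day 7 replicate 2 (0.0553), and the OSK-cJun rise without day 1 replicate 1 (0.0614) or day 7 replicate 2 (0.074).

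Id4, the fourth gene of the family, was at 117 and 86 at OSK day 0 and at 34 and 21, 39 and 43, 35 and 38, and 71 and 23 at days 1, 3, 5 and 7. In OSK-cJun it was at 45 and 43, 38 and 28, 24 and 22, and 60 and 36 at days 0, 1, 3 and 7, in MEF at 47 and 64, and in OSK-shSap30 at 51 and 77. Its OSK day 0 libraries were above those of all later OSK days, while in OSK-cJun days 0 and 7 overlapped. The fold from OSK day 0 was -1.87 at day 1 (SE 0.45, adjusted p = 0.0156) and -1.29 at day 7 (SE 0.45, adjusted p = 0.0384). The day 1 call was lost without OSK day 0 replicate 1 (0.13) or day 1 replicate 2 (0.173), and the day 7 call without day 0 replicate 1 (0.198), day 0 replicate 2 (0.0653) or day 7 replicate 2 (0.504). Without the last of these libraries the day 7 fold was -0.49. The folds of OSK-cJun were -0.42 at day 1 (adjusted p = 0.675) and 0.08 at day 7 (adjusted p = 0.953), and the difference between courses in the day 7 fold was 1.36 (SE 0.64, adjusted p = 0.272).

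**Figure D2:**
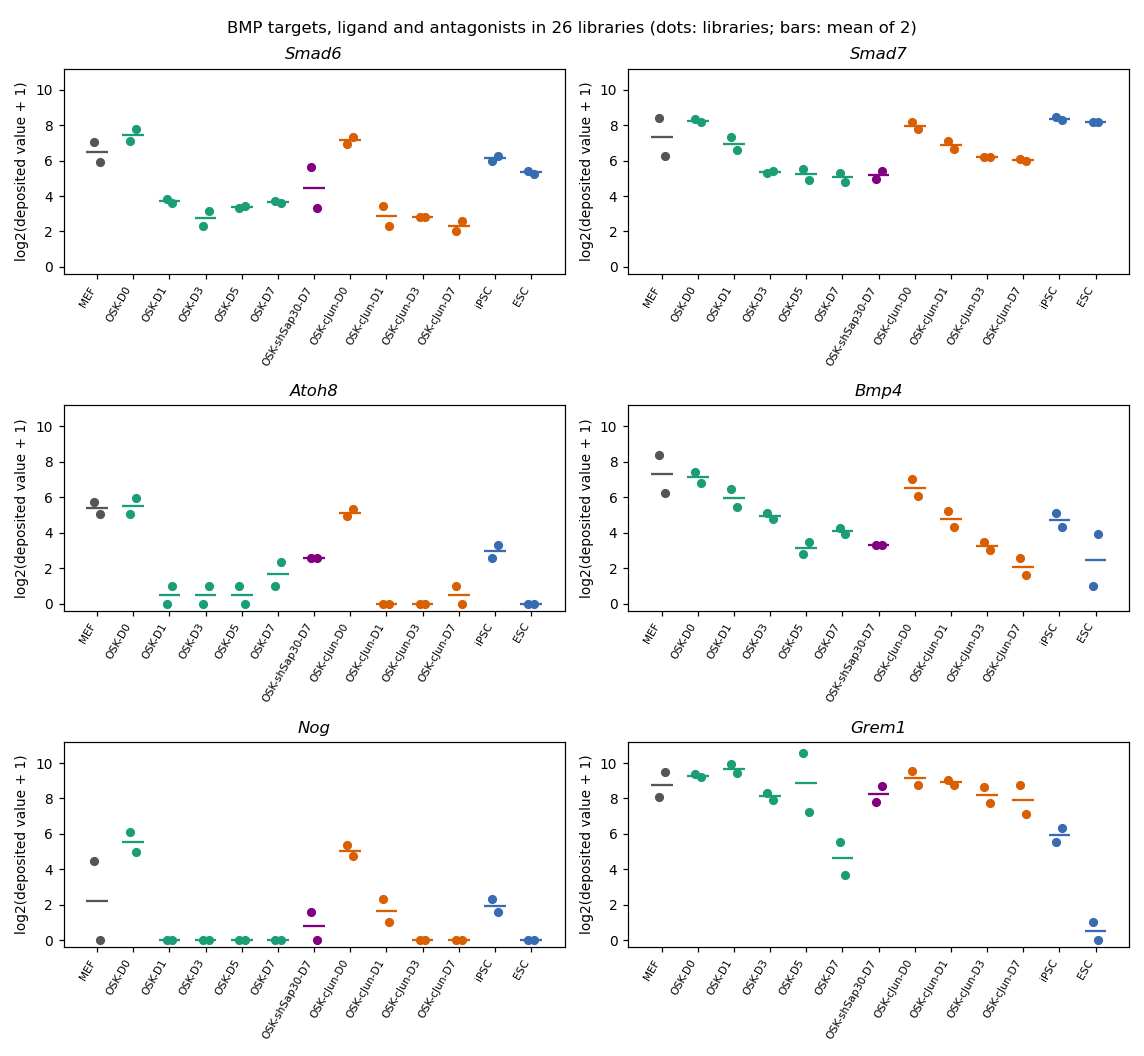
Deposited values of Smad6, Smad7, Atoh8, Bmp4, Nog and Grem1 on a log2(value + 1) axis in the 13 groups, with a dot for each of 2 libraries and a bar for their mean. Smad6 and Atoh8 are high in MEF and at day 0 and low at all later days of both courses, and Grem1 is lowest at OSK day 7 among the reprogramming groups.

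Smad6, an inhibitory Smad that acts mainly on BMP receptors, stood at 133 and 59 in MEF and at 135 and 218 at OSK day 0. Later OSK values were 13 and 11 (day 1), 4 and 8 (day 3), 9 and 10 (day 5), and 12 and 11 (day 7). The OSK-cJun values were 124 and 162 (day 0), 10 and 4 (day 1), 6 and 6 (day 3), and 3 and 5 (day 7). Every library of day 1 or later lay at or below 13 in these courses, and every library of day 0 at or above 124. The log2 fold to day 1 was -3.73 in OSK (SE 0.59, adjusted p = 0.000741) and -4.27 in OSK-cJun (SE 0.59, adjusted p = 0.000173). At day 7 it was -3.79 (adjusted p = 9.29e-05) and -4.86 (adjusted p = 1.01e-05) against day 0, and the fold between days 1 and 7 was -0.05 in OSK (SE 0.59, adjusted p = 0.977). OSK-shSap30 gave 49 and 9, libraries on both sides of OSK day 7.

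Smad7 (chromosome 18, 75367529-75395935), an inhibitory Smad of both the BMP and the TGF-beta branch, reached its low values by day 3. Its values were 333 and 76 in MEF, and 327 and 284, 158 and 95, 39 and 41, 46 and 29, and 39 and 27 at OSK days 0, 1, 3, 5 and 7. With cJun they were 289 and 218, 137 and 99, 73 and 73, and 66 and 63 at days 0, 1, 3 and 7, and with the Sap30 hairpin 30 and 42. In both courses each sampled day from 0 to 3 lay below the one before it without overlap. At day 1 the fold from day 0 was not called in OSK (log2 fold -1.31, adjusted p = 0.0872) or in OSK-cJun (-1.10, adjusted p = 0.142). At day 7 it was called in OSK (-3.19, SE 0.45, adjusted p = 3.49e-05) and in OSK-cJun (-1.94, SE 0.45, adjusted p = 0.00405). Smad7 also fell by 1.88 on the log2 scale between OSK days 1 and 7 (adjusted p = 0.00514), a call lost without OSK day 1 replicate 1 (0.0703) or day 7 replicate 2 (0.0634). The OSK-cJun libraries of days 3 and 7 lay above the OSK libraries of the same days, and the difference of the day 7 folds was 1.25 (SE 0.64, adjusted p = 0.32).

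Atoh8, a basic helix-loop-helix factor that answers to BMP in several cell types, was at 52 and 32 in MEF, 32 and 61 at OSK day 0 and 30 and 39 at OSK-cJun day 0. At OSK days 1, 3, 5 and 7 it was at 0 and 1, 0 and 1, 1 and 0, and 1 and 4. In OSK-cJun both libraries were listed at 0 at days 1 and 3, and the day 7 libraries were at 1 and 0. The later libraries of both courses lay at or below 4, and OSK-shSap30 gave 5 and 5. The 6 libraries at 10 or more were those of MEF and day 0, so Atoh8 passed the filter on low values through the groups where it is high, and a lower call after day 0 follows in part from that. The fold from OSK day 0 was -5.00 at day 1 (SE 0.63, adjusted p = 0.000118) and -3.84 at day 7 (SE 0.63, adjusted p = 0.000161). In OSK-cJun the day 1 difference was called (adjusted p = 5.76e-05) against libraries listed at 0, for which no fold is given, and the day 7 fold was -4.64 (SE 0.63, adjusted p = 3.51e-05).

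Bmp4, the one BMP ligand among the 10 genes, dropped in steps. It was at 335 and 74 in MEF, and at 171 and 111, 86 and 42, 34 and 26, 6 and 10, and 18 and 14 at OSK days 0, 1, 3, 5 and 7. In OSK-cJun it was at 129 and 66, 37 and 19, 10 and 7, and 5 and 2 at days 0, 1, 3 and 7, and in OSK-shSap30 at 9 and 9. From day 0 on, no sampled day of OSK-cJun overlapped the one before, and in OSK the same held to day 5. The fold from day 0 to day 7 was -3.04 in OSK (SE 0.78, adjusted p = 0.00601) and -4.46 in OSK-cJun (SE 0.78, adjusted p = 0.000389). The OSK call was lost without day 0 replicate 1 (0.0539). Between days 1 and 7 Bmp4 was called lower in OSK-cJun (-2.70, adjusted p = 0.0325), a call lost without any 1 of its 4 libraries (0.239 and 0.0603 for day 1, 0.0554 and 0.226 for day 7), and it was not called in OSK (-1.86, adjusted p = 0.09). At day 7 the OSK-cJun libraries lay below those of OSK (-1.99, SE 0.78, adjusted p = 0.0919).

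Nog, which encodes the secreted antagonist noggin, was at 67 and 31 at OSK day 0 and at 40 and 26 at OSK-cJun day 0. It was listed at 0 in every library of OSK days 1, 3, 5 and 7 and of OSK-cJun days 3 and 7, at 4 and 1 at OSK-cJun day 1, and at 2 and 0 in OSK-shSap30. MEF gave 21 and 0, so the 2 MEF libraries differed widely. Only 5 of 26 libraries reached a value of 10 and 16 were at 0, so Nog passed the filter on low values through MEF and day 0 alone. The difference of OSK day 1 from day 0 was called (adjusted p = 0.00184), as was that of day 7 (adjusted p = 0.000324), and no fold is given against libraries listed at 0. In OSK-cJun the day 1 fold was -3.40 (adjusted p = 0.0334), lost without either day 0 library (0.176 and 0.108) or either day 1 library (0.0552 and 0.257). Nog was also the 1 gene of the 10 called between OSK day 0 and MEF, at a fold of 3.31 (SE 0.99, adjusted p = 0.043), where 6.98% of all tested genes were called and 4.92% as higher. That call was lost without MEF replicate 2, the library at 0 (0.531), OSK day 0 replicate 1 (0.243) or OSK day 0 replicate 2 (0.0906).

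Grem1, which encodes the antagonist gremlin and is known as a product of fibroblasts, was at 272 and 706 in MEF and did not drop at day 1. Its OSK values were 659 and 596, 972 and 685, 317 and 242, 1505 and 150, and 46 and 12 at days 0, 1, 3, 5 and 7. In OSK-cJun they were 738 and 430, 533 and 436, 396 and 216, and 428 and 139 at days 0, 1, 3 and 7, and in OSK-shSap30 they were 225 and 417. The 2 OSK day 7 libraries lay below every other reprogramming library, and the 2 day 5 libraries were farther apart than those of any other group of the course. The fold from OSK day 0 was 0.38 at day 1 (adjusted p = 0.894) and -4.67 at day 7 (SE 0.85, adjusted p = 0.000497). In OSK-cJun the day 7 fold was -1.20 (SE 0.85, adjusted p = 0.364).

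At day 7 Grem1 was higher in OSK-cJun than in OSK, by 3.31 (SE 0.85, adjusted p = 0.0137), and higher in OSK-shSap30 than in OSK, by 3.64 (SE 0.85, adjusted p = 0.0101). These 2 comparisons share the OSK day 7 libraries, whose values were 46 and 12. The first call was lost without OSK day 7 replicate 2 (adjusted p = 0.164) or OSK-cJun day 7 replicate 1 (0.165), and the second without OSK day 7 replicate 2 (0.147) or OSK-shSap30 replicate 2 (0.081). Both were also lost when the compared libraries alone entered the fit (0.131 and 0.144). Grem1 was the 1 gene of the 10 called in each, where 11.8% of all genes were called (6.76% as higher) for cJun and 9.85% (4.93% as higher) for the hairpin. The difference between courses in the day 7 fold was 3.46 (SE 1.21, adjusted p = 0.124), and it was called when the OSK day 5 libraries were left out (adjusted p = 0.0404). The 8 fibroblast markers, none of them listed at 0 in both libraries, summed to 11143 to 11880 at OSK day 7, 35257 to 35986 at OSK-cJun day 7 and 6469 to 7674 in OSK-shSap30. Col1a2 and Col3a1 made up most of these sums, and both OSK-cJun libraries held Col1a2 at 21544, the ceiling of these values. Taken one by one, 6 of the 8 markers had a higher mean with cJun than with OSK (Pdgfrb and Postn were lower) and 5 of 8 with the hairpin (Col1a2, Col3a1 and Prrx1 were lower). The part of fibroblast RNA in either Grem1 difference was not tested.

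**Figure D3:**
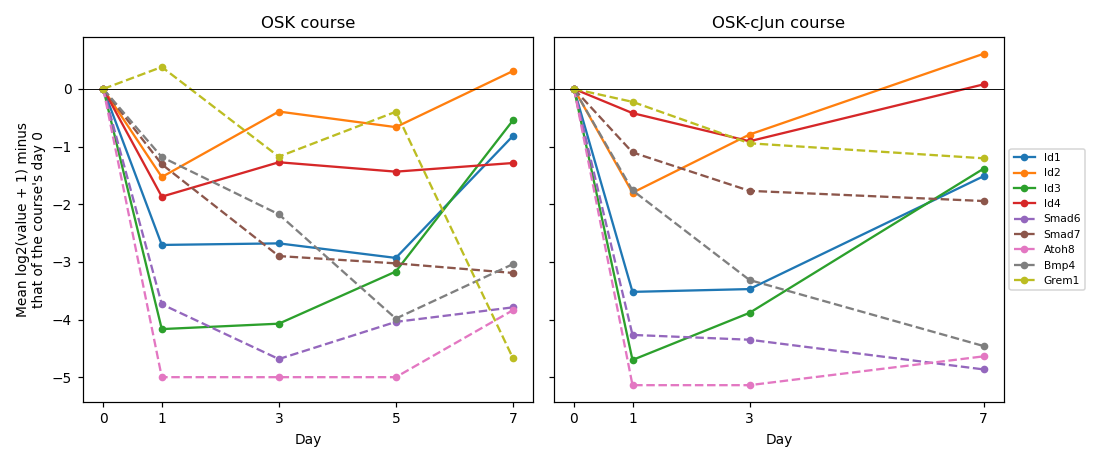
Mean log2(value + 1) minus that of day 0 for 9 of the 10 genes along the OSK course and the OSK-cJun course, with the day on the horizontal axis, solid lines for Id genes and dashed lines for the others. Nog is left out because it is listed at 0 after day 0 in OSK. The lines of Id1, Id2 and Id3 end above their day 1 points, while Smad6, Smad7, Atoh8 and Bmp4 stay below -1.

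Nog and Atoh8 reached the filter on low values in MEF and at day 0 alone, so the counts that follow are over the 8 other genes, with these 2 named apart. At day 1, 4 of the 8 were called lower than day 0 in OSK (Id1, Id3, Id4 and Smad6) and 0 higher, against 6.3% of all tested genes called, 3.12% as lower. In OSK-cJun 4 of the 8 were called lower (Id1, Id2, Id3 and Smad6), against 8.26% of all genes, 3.87% as lower. Nog and Atoh8 were called lower in both courses. The median log2 fold of the 8 was -1.70 in OSK and -1.78 in OSK-cJun, beside 0.01 and 0 over all genes. When the compared libraries alone entered the fit, 1 of all 10 genes (Id3) was called in OSK. In that fit 53 of all 16038 tested genes were called, against 1010 with all libraries. Over the same day the 4 smooth muscle markers, of which none was listed at 0 in both libraries, went from a sum of 25633 to 26743 to one of 1135 to 3294 in OSK and from 26449 to 27522 to one of 772 to 2176 in OSK-cJun. Acta2 made up most of the day 0 sums and stood at 21544, the ceiling of these values, in every day 0 library. The part of these markers in the drop of the BMP genes was not tested. At OSK day 3, 4 of the 8 were called lower (Id1, Id3, Smad6 and Smad7), and Nog and Atoh8 besides, against 17.2% of all genes, 8.69% as lower. The Id1 call at day 3 (log2 fold -2.68, adjusted p = 0.0198) was lost without any 1 of its 4 libraries (0.0891 and 0.0735 for day 0, 0.0648 and 0.105 for day 3).

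By day 7, 5 of the 8 were called lower than day 0 in OSK (Id4, Bmp4, Grem1, Smad6 and Smad7), against 23.8% of all genes, 12.6% as lower. In OSK-cJun 3 were called lower (Bmp4, Smad6 and Smad7), against 17.7%, 8.79% as lower. Nog and Atoh8 were again called lower in both, and Id1, Id2 and Id3 in neither. The median fold of the 8 was -2.16 in OSK and -1.45 in OSK-cJun, beside 0.06 and 0 over all genes. Between days 1 and 7, a comparison added once these values had been seen, Id2 and Id3 were called higher and Grem1 and Smad7 lower in OSK, against 18.9% of all genes called, 8.7% as higher and 10.2% as lower. In OSK-cJun Id2 and Id3 were called higher and Bmp4 lower, against 8.52%, 4.51% as higher and 4.01% as lower. Between OSK days 0 and 7 the 6 epithelial markers went from a sum of 32 to 54, with Cldn4 listed at 0, to one of 3552 to 5932, and the 8 pluripotency markers from 12 to 29, with Zfp42, Tdgf1 and Utf1 at 0, to 967 to 1048. In OSK-cJun the day 7 sums were 2227 to 3168 and 125 to 205. Tfcp2l1 made up most of the day 7 pluripotency sums, at 634 and 614 in OSK and 181 and 111 in OSK-cJun. Krt8 made up most of the OSK-cJun epithelial sum, at 1402 and 1860. Whether the late Id values follow these markers was not tested.

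Against OSK of the same day limma called, for OSK-cJun, 0 of 10 at day 0 (0.0748% of all genes), 0 at day 1 (1.98%), 0 at day 3 (7.54%) and, at day 7, 1 (11.8%), which was Grem1. Counts of this size are near the share over all genes and so are no result about these 10. At an unadjusted p below 0.05 the counts were 1 (Id4), 1 (Id2), 2 (Id2 and Bmp4) and 4 (Bmp4, Grem1, Smad6 and Smad7). Over all 16038 tested genes the counts at that threshold were 712, 1934, 3426 and 4761. Id1 was lower with cJun at day 1 in every library, 39 and 26 against 111 and 58, and at day 3, 34 and 32 against 93 and 72, with folds of -1.31 (SE 0.78, adjusted p = 0.592) and -1.29 (SE 0.78, adjusted p = 0.394). With standard errors of this size a missed threshold does not show that the courses were alike. For the difference between courses, limma called 0 of 10 in the fold from day 0 to day 7 (3.82% of all genes) and 0 in that from day 1 (1.63%), with 2 (Id4 and Grem1) and 1 (Grem1) at an unadjusted p below 0.05. Of 16038 tested genes, 2905 and 2274 passed that unadjusted threshold in these 2 comparisons. Without the OSK day 5 libraries Grem1 was called in both (adjusted p = 0.0404 and 0.0303).

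**Figure D4:**
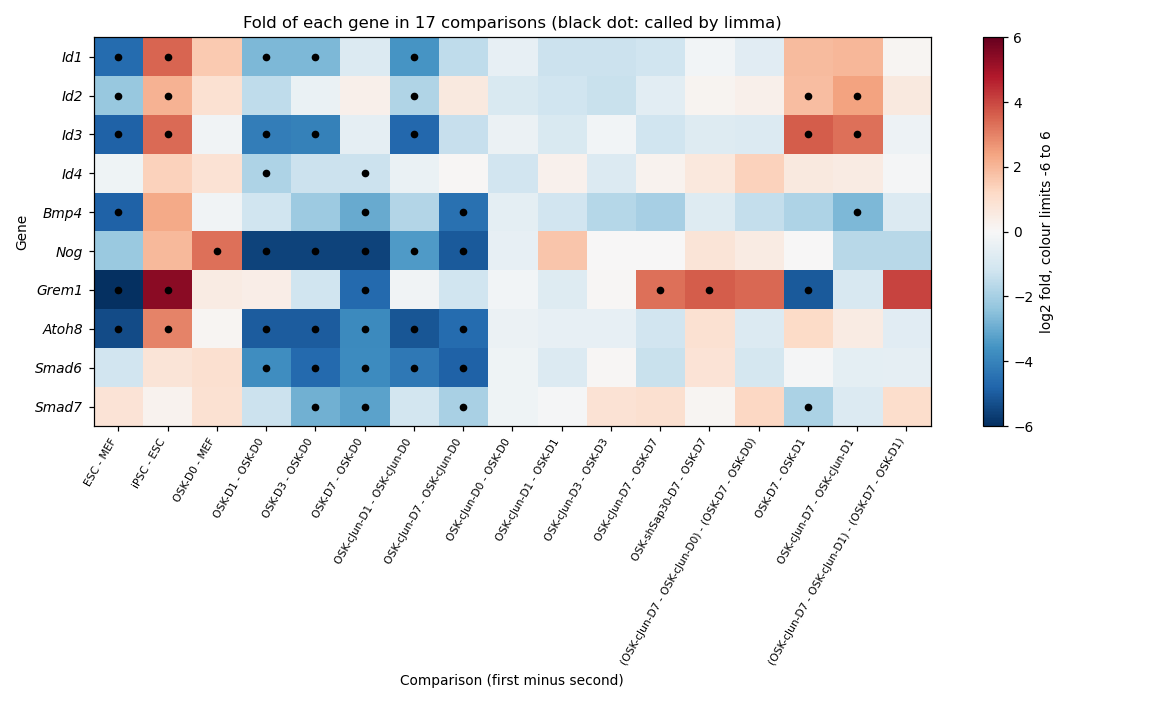
Log2 fold (colour, limits -6 to 6) of the 10 genes in 17 comparisons, first group minus second, with a black dot where limma called the gene. Folds of Nog and Atoh8 against groups listed at 0 are fitted values that depend on the 1 added before the logarithm, and the called cells of the Id genes lie in the day 1 and day 3, ESC and day 7 minus day 1 columns, with 1 for Id4 at OSK day 7.

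In ESC 5 of the 8 genes, and Atoh8 besides, were called lower than in MEF and 0 of the 10 higher, against 43% of all genes called, 20.6% as lower. Id1 was at 3 and 12 in ESC (log2 fold -4.61, SE 0.78, adjusted p = 0.000101), Id2 at 30 and 36 (-2.28, SE 0.49, adjusted p = 0.000834) and Id3 at 8 and 67 (-4.84, SE 0.78, adjusted p = 5.87e-05). Bmp4 was at 1 and 14 (-4.86, adjusted p = 4.47e-05), Grem1 at 1 and 0 (-8.28, adjusted p = 4.6e-07), and Atoh8 was listed at 0 in both ESC libraries and called lower. The feedback genes were not called. Smad7 stood at 284 and 288 in ESC and Smad6 at 42 and 37, with folds of 0.84 (adjusted p = 0.127) and -1.15 (adjusted p = 0.111). Id4 was at 30 and 70 in ESC (adjusted p = 0.677) and Nog was listed at 0. The median fold of the 8 was -3.44, beside 0.13 over all genes. MEF were grown with fetal bovine serum and ESC in N2B27 with 2i and LIF, and their labelled passages differed. Medium, passage and cell type therefore cannot be told apart in these folds.

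In iPSC 4 of the 8 genes, and Atoh8 besides, were called higher than in ESC and 0 of the 10 lower, against 6.22% of all genes called, 4.57% as higher. Id1 was at 50 and 127 in iPSC (log2 fold over ESC 3.49, SE 0.78, adjusted p = 0.00949), Id2 at 136 and 152 (2.10, SE 0.49, adjusted p = 0.0125) and Id3 at 207 and 332 (3.41, SE 0.78, adjusted p = 0.0107). No iPSC library of these genes overlapped ESC. The Id1 call was lost without ESC replicate 1 (0.144) or iPSC replicate 2 (0.151), the Id2 call without ESC replicate 1 (0.1), iPSC replicate 1 (0.0534) or iPSC replicate 2 (0.106), and the Id3 call without ESC replicate 1 (0.191) or iPSC replicate 2 (0.12). Grem1 was at 45 and 79 (5.42, SE 0.85, adjusted p = 0.000487), and Atoh8 at 5 and 9 against ESC libraries listed at 0 (adjusted p = 0.00611). The Atoh8 call was lost without iPSC replicate 2 (0.0985), with 10 in place of the added 1 (0.0718) or with iPSC and ESC alone in the fit (0.0692). Id4 was at 129 and 111, its highest group (1.36, adjusted p = 0.0878), Bmp4 at 34 and 19 (2.27, adjusted p = 0.0985) and Nog at 4 and 2. Without ESC replicate 2 Id4 and Bmp4 were called too (0.032 and 0.0056). Smad6 was at 63 and 75 and Smad7 at 348 and 311, with folds of 0.79 (adjusted p = 0.552) and 0.20 (adjusted p = 0.925). The median fold of the 8 was 2.18, beside 0 over all genes.

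Fibroblast transcripts differed between these stem cells in the same direction. The 8 fibroblast markers summed to 7594 and 14155 in the iPSC libraries and to 170 and 638 in ESC, 13.3% and 0.496% of the MEF mean, with none listed at 0 in both libraries, and 8 of 8 had a higher mean in iPSC. Both MEF libraries were at that ceiling of 21544 for Col1a1, Col1a2 and Col3a1, so these percentages are taken of capped values and are not set against those of other genes. Id1, Id2, Id3 and Grem1 stood in iPSC at 40.5%, 79.3%, 38.1% and 12.7% of their MEF means, and Atoh8 and Smad6 at 16.7% and 71.9%. The MEF libraries of Id1 (350 and 87), Id2 (261 and 102) and Smad6 (133 and 59) overlapped those of iPSC. Those of Id3, Grem1 and Atoh8 did not, and iPSC against MEF was not fitted. The 4 smooth muscle markers summed to 841 to 1713 in iPSC and to 6 to 63 in ESC, with Cnn1 at 0 in ESC. The part of such RNA in the iPSC values was not tested. The stem cell groups also differed in labelled passage, and the labels gave no strain for iPSC, so line, passage and cell type cannot be told apart.

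Ordered by group mean, neighbouring groups mostly overlapped. Of the 12 steps between neighbours, the library ranges were apart in 3 for Id1, 4 for Id2, 3 for Id3 and 2 for Id4. The order of Id1 ran from OSK day 0 (mean 529.5) and OSK-cJun day 0 (378) down to OSK-cJun day 1 (32.5) and ESC (7.5), and that of Id3 from MEF (708) and OSK day 0 (608) down to OSK-cJun days 3 (31.5) and 1 (17.5). Smad7 had a different order, with iPSC (329.5) and OSK day 0 (305.5) highest and OSK day 7 (33) lowest. The ranges were apart in 3 steps each for Bmp4, Grem1, Smad6 and Smad7, in 2 for Atoh8 and in 1 for Nog.

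Likeness of course was described by the Pearson correlation of group means of log2(value + 1), over 13 groups that share libraries with every comparison above. Among the 10 genes it was 0.854 between Id1 and Id2, 0.835 between Id1 and Id3, 0.876 between Atoh8 and Smad6, and 0.87 between Id3 and Atoh8. Because Atoh8 passed the filter on low values through MEF and day 0 alone, its correlations follow in part from those groups. Smad7 followed Smad6 (0.747) but not Id1 (-0.11) or Id2 (-0.48). Over 9870 other genes with a mean value of at least 50, the closest to Id1 were Cacng7 (0.923), Fabp7 (0.917), Rgs16 (0.901) and Zfp36l1 (0.899). The closest to Id3 were Calr (0.917), Ilkap (0.904), Manf (0.902) and Tceal9 (0.879), and the closest to Bmp4 were Ltbp2 (0.947), Slit3 (0.941), Scarf2 (0.940) and Lox (0.939), of which Lox and Ltbp2 encode extracellular matrix proteins.

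The rest of the pathway was read from 6 lists of 51 genes, 50 of them in the table. Of 12 tested antagonists and extracellular modulators, 3 were called lower at OSK day 1 and 9 at OSK day 7 against day 0, with 0 higher at either. Over all genes 3.12% and 12.6% were called lower at these days. Sostdc1 went from 264 and 419 at day 0 to 3 and 9 at day 7 (log2 fold -5.72, adjusted p = 0.000268), and Fstl3, which binds activins, from 295 and 136 to 3 and 6 (-5.25, adjusted p = 4.45e-07). Of 10 receptors and co-receptors, 7 were called lower and 1 higher at OSK day 7, where 23.8% of all genes were called. Bmpr1b, a type I BMP receptor, went from 56 and 38 to libraries listed at 0, and Acvrl1, a type I receptor best known in endothelium, from 42 and 64 to 4 and 1 (-4.06, adjusted p = 4.31e-05). Of 8 ligands 2 were called lower and 1 higher, among them Bmp6, from 48 and 128 to 4 and 4 (-3.99, adjusted p = 0.000171), and so 3 of 8 were called beside 23.8% of all genes.

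Inside the cell, 4 of 6 receptor Smads, Smad4 and Smad ubiquitin ligases were called lower at OSK day 7 and 0 higher, beside 12.6% of all genes called lower and 23.8% called. Smad9, a receptor Smad, was at 139 and 134 at day 0, 17 and 8 at day 1 (-3.43, adjusted p = 0.0165) and 3 and 4 at day 7 (-4.94, adjusted p = 0.000218). Smurf1, a ligase that marks Smads and receptors for degradation, went from 970 and 707 to 317 and 204 (-1.70, adjusted p = 4.79e-05). Of 6 BMP-responsive transcription factors 2 were called lower, Runx2, a bone regulator, from 348 and 194 to 13 and 7 (-4.62, adjusted p = 9.01e-07) and Hey1 from 57 and 42 to 6 and 5 (-2.95, adjusted p = 0.00272). Of the 3 E proteins that Id proteins bind, Tcf3 was called higher, from 589 and 564 to 1280 and 1111 (1.05, adjusted p = 1.01e-05). The list medians were -3.26 for antagonists, -1.35 for receptors, -1.53 for Smads and ligases, -1.27 for ligands, -1.35 for transcription factors and 0.70 for E proteins, beside 0.06 over all genes.

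**Figure D5:**
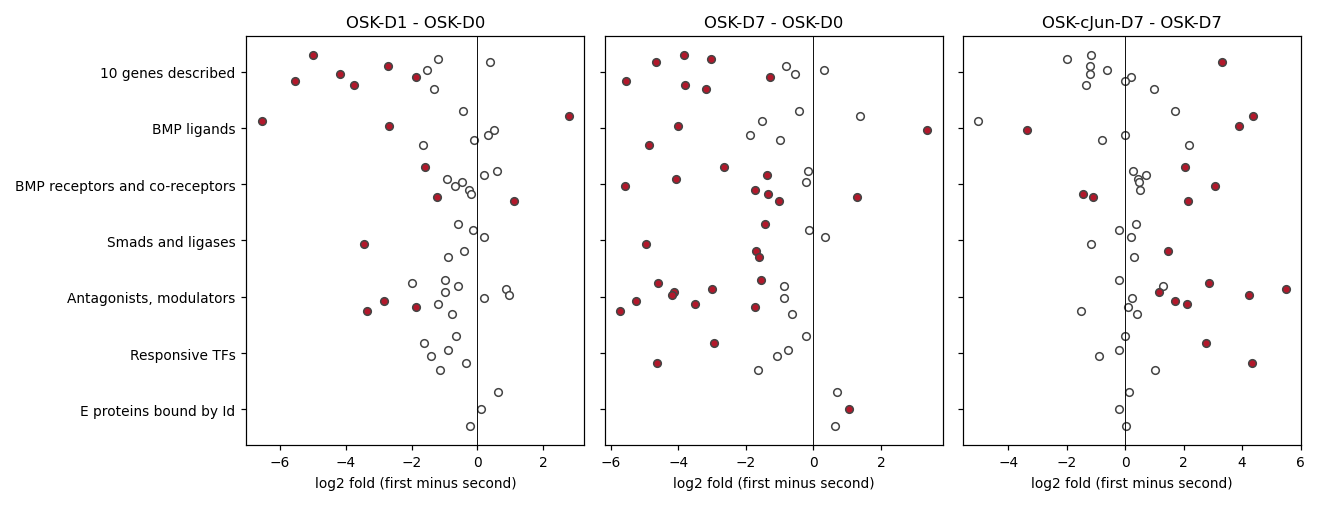
Log2 folds of the 10 genes and of the tested genes of 6 other BMP pathway lists in 3 comparisons, with a point for each gene, filled where limma called it. At OSK day 7 minus day 0 most filled points lie left of 0, and at day 7 OSK-cJun minus OSK 6 antagonists lie filled on the right.

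At day 7, 6 of 12 antagonists and modulators were called higher in OSK-cJun than in OSK and 0 lower, beside 11.8% of all genes called and 6.76% called higher. Chrdl1, a chordin relative, was at 571 and 105 with cJun and at 9 and 2 without (log2 fold 5.49, adjusted p = 9.87e-05), and Fst (follistatin), which binds activins and some BMPs, at 1564 and 1860 against 123 and 65 (4.24, adjusted p = 5.7e-05). Of 8 ligands 2 were called higher, Bmp3 (107 and 107 against 8 and 2) and Bmp6 (79 and 69 against 4 and 4), with folds of 4.38 (adjusted p = 0.000872) and 3.90 (adjusted p = 0.000652). The 1 called lower was Bmp7, at 2 and 0 against 19 and 15 (-3.37, adjusted p = 0.0467), named here because the count is small. Of 10 receptors and co-receptors 3 were called higher and 2 lower. Those higher included the co-receptor Rgmb, at 382 and 395 against 76 and 98 (2.16, adjusted p = 2.99e-06), and Bmpr1b, listed at 0 in OSK. With the Sap30 hairpin, where 9.85% of all genes were called and 4.93% called higher, 2 of 12 antagonists were called higher than in OSK, Bmper (24 and 52 against 5 and 3, fold 2.89, adjusted p = 0.00954) and Crim1 (200 and 213 against 74 and 43, fold 1.85, adjusted p = 0.00101). Of 8 ligands 2 were called higher with the hairpin and 0 lower, Bmp8b (70 and 82 against 1 and 2, fold 4.97, adjusted p = 0.000289) and Bmp6 (24 and 17 against 4 and 4, fold 2.08, adjusted p = 0.0427). Bmp8b reached the filter value of 10 in the OSK-shSap30 libraries alone. Its higher call, and its place in the ligand count, follow in part from that. Of 10 receptors and co-receptors 4 were called higher and 1 lower, the latter Rgma at 141 and 146 against 331 and 452 (-1.42, adjusted p = 0.000702). Id1, Id2 and Id3 were called in neither of these comparisons, with Id1 folds of -1.19 (SE 0.78, adjusted p = 0.342) for cJun and -0.19 (SE 0.78, adjusted p = 0.931) for the hairpin. When the compared libraries alone entered the fit, 0 of all 16038 tested genes were called for the hairpin and 541 for cJun. With all libraries these counts were 1580 and 1890. Every hairpin call above was therefore lost in that fit. Calls of pathway genes outside the 10 were not followed one by one under the alternatives.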

How the data were processed

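Per the labels' protocols, TruSeq RNA libraries of TRIzol RNA were read on a NextSeq 500. The submitters' processing notes name mm10 and the tools bcl2fastq, Bowtie2 and RSEM, whose versions are not given in the sources used here. The values deposited by the authors are a normalised score, not counts, with library totals of 4619641 to 4624161 and the same highest value, 21544, in every library, so depth is unknown. How they were normalised is not given in the sources used here, and 0 sample columns were left unused. Of 18198 Ensembl identifiers, 18039 were matched to a symbol and 159 were not.

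Values plus 1 were taken to log2, genes at 10 or more in at least 2 libraries were kept (16038, all 10 genes described among them), and limma 3.58.1 (R 4.3.3, statmod 1.5.0) was run over the 26 libraries with a mean for each group, leaving 13 residual degrees of freedom, with a trended, robust variance. It was tested on simulated data first. The 10 genes and the lists were chosen with earlier results of these data known. Of the other pathway genes, up to 2 called genes of a list with the largest folds in a comparison were eligible to be named, and for Id1, Id3 and Bmp4 the 4 most correlated genes. Of 17 comparisons, 3 (day 7 against day 1 in each course, and their difference) were added after values were seen. Alternatives were 10 in place of the added 1, no filter, centring on the library median, the compared libraries alone, a replicate block, no OSK day 5 libraries and each replicate left out. RefSeq promoter windows were searched in Python 3.11.15 with pandas 2.3.3, and figures were drawn with matplotlib 3.10.9.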

Additional observations from a re-analysis of the deposited data

How the results depend on the processing

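Of the 82 folds of the 10 genes followed under each alternative, 0 changed direction while called, and centring on the library median or testing without a filter changed 0 calls. Adding 10 in place of 1 gained 5 calls and lost 1. Gained were Bmp4 and Id4 at OSK day 3 against day 0, and Bmp4 and Id1 at OSK day 7 against day 1. Smad6 was gained in ESC against MEF. Fitting the compared libraries alone, which leaves few residual degrees of freedom, lost 14 calls and gained 3. The 3 were Bmp4, Grem1 and Id4 at OSK day 3 against day 0 (adjusted p = 0.0156, 0.0211 and 0.0326). The count of the 10 genes called then went from 1 to 0 for OSK day 0 against MEF, from 6 to 1 for OSK day 1 against day 0, from 1 to 0 for both OSK-cJun and OSK-shSap30 against OSK at day 7, from 3 to 0 for OSK-cJun day 7 against day 1, and from 5 to 2 for iPSC against ESC. The count of all genes called moved in the same fit from 1120 to 0, 1010 to 53, 1890 to 541, 1580 to 0, 1366 to 565 and 998 to 376 in that order. It also moved from 1324 to 782 for OSK-cJun day 1 against day 0, from 3030 to 1972 for OSK day 7 against day 1, from 12 to 0 and 318 to 0 for OSK-cJun against OSK at days 0 and 1, and from 613 to 331 and 262 to 99 for the differences between courses from day 0 and from day 1. With 10 added, 12 became 23 and 262 became 508. Without the OSK day 5 libraries the count of the 10 genes rose from 0 to 1 for both differences between courses, the gene being Grem1. The count of all genes called rose there from 613 to 739 and from 262 to 362.

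Over 356 folds recomputed with 1 replicate left out, 50 lost a call and 2 gained one. The count of the 10 genes then ran from 0 to 2 for OSK day 0 against MEF, 2 to 4 for OSK day 7 against day 1, 3 to 4 for OSK-cJun day 1 against day 0, 0 to 1 for both OSK-cJun and OSK-shSap30 against OSK at day 7, 0 to 2 for OSK-cJun day 7 against day 1, and 1 to 7 for iPSC against ESC. The lone library left in a group is assumed to vary like the others.

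Replicate numbers did not pair the libraries by the labels. The differences between replicates correlated across genes by 0.193 to 0.331 in the comparisons within and between the OSK and OSK-cJun courses. In the comparisons with MEF, ESC, iPSC or OSK-shSap30 the correlations were -0.0553 to 0.0953. Folds against groups listed at 0 are not among the 82, and of their calls Nog at OSK day 1 (adjusted p = 0.0551) and Atoh8 in iPSC (0.0692) were lost with the compared libraries alone, the latter also with 10 added (0.0718). With the replicate number as a block, the count of the 10 genes went from 6 to 8 for OSK day 1 against day 0 (Id2, adjusted p = 0.0461, and Smad7, 0.049, were gained) and from 6 to 7 for OSK day 3 against day 0 (Bmp4, 0.0451), and ESC against MEF went from 6 to 7. The count of all genes called went from 1010 to 1128, 2766 to 2909 and 6897 to 6967 in that order. Counts of the 10 genes include Nog and Atoh8, which passed the filter through MEF and day 0 alone.

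With 2 libraries a group, standard errors of the log2 fold between 2 groups ran from 0.45 (Smad7, Id4) to 0.99 (Nog). Those of the differences between courses ran from 0.64 (Smad7, Id4) to 1.40 (Nog). Depth could not be read from the deposited values. Genes listed at 0 have folds set by the number added.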
